A study of Homo sapiens with 6 samples.

Results

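The glycosyltransferases described here are the genes of the deposited table whose symbol starts with GALNT, B3GALT, B4GALT, B3GNT, FUT, ST3GAL, ST6GAL, MGAT or GCNT followed by a number or subfamily letters. Antisense and pseudogene names were to be dropped, and the table held none under these prefixes. The rule found 76 genes of the 16781 in the table, 17 GALNT, 6 B3GALT, 7 B4GALT, 9 B3GNT, 10 FUT, 6 ST3GAL, 8 ST6GAL (6 of them ST6GALNAC), 9 MGAT and 4 GCNT genes. They take in enzymes of mucin O-glycans, N-glycans, glycolipids and the glycosaminoglycan linker, and leave out others such as C1GALT1. RNA came from Caco-2 cells, a cell line of human colon adenocarcinoma grown here in high glucose DMEM with serum, in 3 libraries in which CBS was knocked out with Cas9 (CBS KO) and 3 libraries labelled WT. The CBS KO cells had been infected with a lentivirus for Cas9 and the guide and kept in puromycin, which is not described for WT, so that knockout, infection and drug selection cannot be told apart. Puromycin-resistant cells were collected, and no cloning step is described. The labels do not tell whether each library had its own culture, and the p-values may rest on technical spread alone.

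Glycosyltransferases are enzymes of the secretory pathway, mostly type II membrane proteins of the Golgi, that move a sugar from a nucleotide donor onto a protein, a lipid or a growing glycan. GALNT enzymes start mucin-type O-glycans on serine and threonine, GCNT enzymes branch O-glycans and polylactosamine chains, and MGAT enzymes set the number of antennae of N-glycans. Most B4GALT, B3GNT and B3GALT enzymes lengthen the chains. Most FUT enzymes and the ST3GAL and ST6GAL enzymes cap them with fucose or sialic acid. In the intestine these caps form the blood group, Lewis and sialylated epitopes of mucus and of the brush border.

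The libraries held 13482767, 12805180 and 14307287 expected counts in CBS KO and 16176745, 16097680 and 16171550 in WT. CBS, the transsulfuration enzyme that was targeted, stood at 24.6, 18.5 and 25.4 CPM in the CBS KO libraries, against 48.8, 53 and 50.6 CPM in the WT libraries (log2 fold change -1.15, SE 0.10, edgeR adjusted p = 1.18e-08). Levels compared between groups are counts per 1000000 counts after TMM scaling (trimmed mean of M values), written CPM. Levels compared between genes are the authors' deposited TPM (transcripts per 1000000), which are per length. The epithelial marker EPCAM stood at 1122 ± 21.5 CPM in CBS KO and 528 ± 11.2 CPM in WT. Of 14 tested markers of the line and of enterocytes 10 were higher and 3 lower in CBS KO with TMM, 4 higher and 4 lower with the library total and 3 higher and 8 lower with log2(TPM + 1), the intestinal factor CDX2 being lower at 76.8 ± 1.46 CPM in CBS KO and 294 ± 8.58 CPM in WT, and CDX1 was under 1 CPM in every library. Of 10 goblet cell markers 4 were under 1 CPM in every library, MUC2, ATOH1 and SPDEF among them, and the list summed to 419.5 to 452 CPM in CBS KO and 309.8 to 349 CPM in WT. Its genes did not move together. Of 6 tested, 2 were higher and 2 lower with TMM, and 1 was higher and 4 lower with the library total. With log2(TPM + 1), 2 were higher and 3 lower of 5 tested. Over all genes, 4998 were higher and 5062 lower of 13028 tested with TMM, and 2966 and 7403 with the library total. With log2(TPM + 1) all genes gave 1969 higher and 8451 lower of 12786 tested. The leukocyte list summed to 99.4 to 116 CPM in CBS KO and 42.9 to 50.9 CPM in WT, most of it CD68, and 4 of its 8 genes, PTPRC among them, stayed under 1 CPM. The fibroblast list summed to 191 to 203 CPM in CBS KO and 228 to 258 CPM in WT, most of it COL1A1, with 2 of its 7 genes under 1 CPM, and the endothelial list to 9.23 to 9.92 CPM in CBS KO and 25.5 to 29.2 CPM in WT, with 2 of its 4 genes under 1 CPM. The part of these markers in the results was not tested. In such bulk samples, fewer cells that express a gene and less of its RNA per cell cannot be told apart.

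Of the 76 glycosyltransferase genes 61 had enough counts to be tested, and 25 of these were higher and 23 lower in CBS KO (edgeR's quasi-likelihood test, Benjamini-Hochberg adjusted p under 0.05 over all 13028 genes tested). That is 41.0% higher and 37.7% lower, beside 38.4% and 38.9% of all genes tested, so the share of members that changed was near that of the whole transcriptome, where 77.2% of genes were called. The members' median log2 fold change was -0.03 and that of all genes -0.01. With TMM a rise of at least 2-fold was called for 13 members (21.3%, beside 12.0% of all genes) and a fall of at least 2-fold for 10 (16.4%, beside 11.5%). The 3 CBS KO libraries did not overlap the 3 WT libraries for 53 of the 61 members (86.9%, beside 79.1% of all genes). Each of the 9 prefixes held a member that rose and a member that fell. Full values are given for 33 members named by a rule, which takes the most abundant gene of each prefix and the most changed ones. GALNT1, GALNT4, GALNT7, GALNT10, GALNT11, GALNT12, GCNT4, MGAT1, MGAT3, MGAT4C, B4GALT1, B4GALT2, B4GALT3, B3GNT9, B3GALT1, B3GALT5, FUT1, FUT3, FUT4, FUT6, FUT10, ST3GAL1, ST3GAL3, ST3GAL5, ST6GALNAC1, ST6GALNAC3, ST6GALNAC5, B3GNT6, B3GNT8 and GALNT9 are named beside them after their values were seen.

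**Figure D1:**
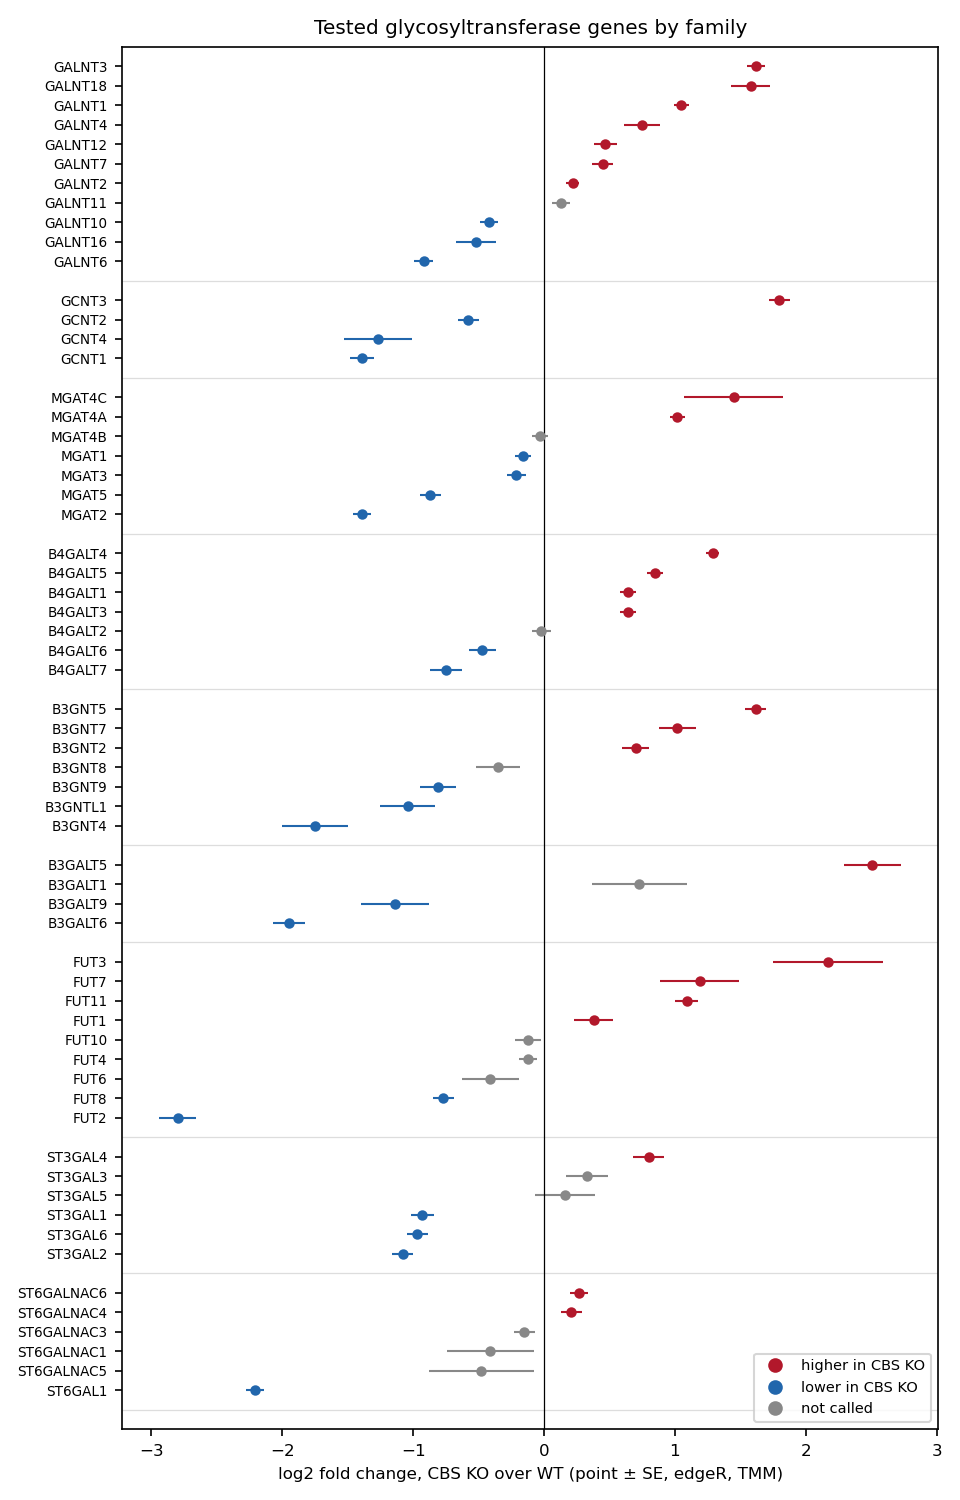
Log2 fold change of CBS KO over WT (x axis, point ± standard error from edgeR) for the 61 tested glycosyltransferase genes, grouped by family down the page. Red points were called higher in CBS KO (25 genes), blue points lower (23 genes) and grey points were not called (13 genes), and each family has points on both sides of 0.

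The direction of small changes depended on the scaling between libraries. The median gene stood at -0.01 with TMM, at -0.36 when only library totals were equalised and at -0.52 with log2(TPM + 1), all as log2 fold changes. Among the members called, 52.1% were higher with TMM, 36.5% with the library total (19 higher and 33 lower of 61) and 26.1% with TPM (12 higher and 34 lower of 57 tested). Over all genes called the higher share was 49.7%, 28.6% and 18.9%. FUT11, GALNT1, MGAT4A and B3GNT7 had log2 fold changes of 1.09, 1.05, 1.02 and 1.02 with TMM. With the library total they stood at 0.74, 0.7, 0.67 and 0.67, and with log2(TPM + 1) at 0.45, 0.45, 0.5 and 0.35. GALNT6 and ST3GAL6 went from -0.92 and -0.97 with TMM to -1.27 and -1.32 with the library total. Both stood at -1.43 with log2(TPM + 1). All 23 members called lower with TMM were called lower with each of these scalings and with DESeq2's size factors. The library total and TPM lowered the median gene and DESeq2's size factors left it at 0.0, so a fall could hardly be lost. The contrast with the rises below therefore does not show that falls were firmer. Of the 25 called higher, 19 kept a positive fold change wherever they were tested and 14 kept the call, while FUT1, GALNT12, GALNT2, GALNT7, ST6GALNAC4 and ST6GALNAC6 turned in at least 1 of them. A further 5, namely B3GNT2, B4GALT1, B4GALT3, GALNT4 and ST3GAL4, kept a positive value and lost the call in at least 1 scaling. Of the 13 members not called with TMM, 8 were called lower with both the library total and log2(TPM + 1), namely B3GNT8, B4GALT2, FUT4, FUT6, FUT10, GALNT11, MGAT4B and ST6GALNAC3, and 0 were called higher with either. A gene's share of its family's TPM does not change with a common factor per library and is given beside the levels, but it can differ from the share of CPM, which is not per length. Likewise the summed level of a family is given in both units.

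Promoter sequence is shown for the 3 members with the largest rise (GCNT3, B3GNT5 and GALNT3) and the 3 with the largest fall with TMM (FUT2, ST6GAL1 and B3GALT6) among called members with a mean of at least 1 TPM in the higher group, as the DNA that lies next to the most changed transcripts. Each line is the 250 bases before a start that RefSeq (GRCh38.p14) lists for the gene, read 5′ to 3′ along the gene: GCNT3 at chr15:59611533-59611782 (plus strand), B3GNT5 at chr3:183253003-183253252 (plus), GALNT3 at chr2:165794248-165794497 (minus), FUT2 at chr19:48695721-48695970 (plus), ST6GAL1 at chr3:186930276-186930525 (plus) and B3GALT6 at chr1:1231987-1232236 (plus). The GALNT3 window lies inside that gene's full span, because the listed start is 445 bases downstream of the span's outer end. The GC box was searched as GGGCGG. The CCAAT box was searched by the letters of its name. The AP-1 site was searched as TGANTCA, and the cAMP response element as TGACGTCA. The TATA box was searched as TATAAA. Capitals mark matches to any of these on either strand.
GCNT3: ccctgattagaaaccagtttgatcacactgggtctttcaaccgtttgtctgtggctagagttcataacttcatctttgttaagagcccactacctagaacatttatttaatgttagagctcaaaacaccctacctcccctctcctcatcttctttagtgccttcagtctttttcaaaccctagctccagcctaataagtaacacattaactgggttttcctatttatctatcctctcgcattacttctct
B3GNT5: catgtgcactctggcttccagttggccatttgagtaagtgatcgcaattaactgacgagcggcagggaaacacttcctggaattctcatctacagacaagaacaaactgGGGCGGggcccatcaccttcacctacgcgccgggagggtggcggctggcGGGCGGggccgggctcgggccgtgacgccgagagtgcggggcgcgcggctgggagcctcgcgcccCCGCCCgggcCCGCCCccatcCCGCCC
GALNT3: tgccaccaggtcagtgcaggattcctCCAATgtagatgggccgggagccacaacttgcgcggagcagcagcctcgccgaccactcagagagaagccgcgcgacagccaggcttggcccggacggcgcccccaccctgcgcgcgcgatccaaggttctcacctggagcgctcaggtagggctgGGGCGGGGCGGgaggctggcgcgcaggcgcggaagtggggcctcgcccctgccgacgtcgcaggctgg
FUT2: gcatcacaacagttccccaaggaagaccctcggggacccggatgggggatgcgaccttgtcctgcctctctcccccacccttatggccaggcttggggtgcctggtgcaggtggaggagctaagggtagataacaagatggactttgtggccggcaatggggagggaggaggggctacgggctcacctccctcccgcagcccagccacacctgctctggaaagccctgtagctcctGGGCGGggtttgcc
ST6GAL1: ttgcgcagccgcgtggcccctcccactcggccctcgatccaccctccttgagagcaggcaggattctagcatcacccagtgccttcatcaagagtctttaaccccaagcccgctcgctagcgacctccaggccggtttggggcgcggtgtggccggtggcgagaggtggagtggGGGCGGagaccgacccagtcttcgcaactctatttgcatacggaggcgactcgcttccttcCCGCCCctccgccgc
B3GALT6: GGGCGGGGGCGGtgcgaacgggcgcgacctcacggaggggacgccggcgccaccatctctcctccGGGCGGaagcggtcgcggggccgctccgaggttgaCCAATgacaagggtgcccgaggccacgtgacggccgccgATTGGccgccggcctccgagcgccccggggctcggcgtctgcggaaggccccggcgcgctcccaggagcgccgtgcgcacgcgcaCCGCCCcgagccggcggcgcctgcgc

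GCNT3 held none of these motifs, in a window with 40.4% G and C and 2 CpG. The other 5 windows each held at least 1 GC box, 5 in B3GNT5, 2 in GALNT3, 1 in FUT2, 2 in ST6GAL1 and 4 in B3GALT6, of which the pair in GALNT3 overlaps. A CCAAT box was found once in GALNT3 and 2 times in B3GALT6. Among RefSeq genes 42.3% of 27305 such windows hold a GC box, 33.0% a CCAAT box, 11.1% a TATA box, 6.60% an AP-1 site and 1.77% a cAMP response element. The 58 members with a window, at the first start listed for the gene, had a median of 66.4% G and C and 21 CpG. Over all 27305 windows the medians were 58.0% and 11. Of these members 22 were called higher, 16 were called lower and 11 were tested and not called. A GC box was present in 15 of the 22 and in 10 of the 16, a CCAAT box in 8 and in 4, an AP-1 site in 0 and in 2, and a TATA box or a cAMP response element in none of either. Among the 11 not called, a GC box was present in 5, a CCAAT box in 4 and a cAMP response element in 1. Such a match describes the letters only, and the data do not show which start these cells use.

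The polypeptide GalNAc-transferases, which start mucin-type O-glycans, had 7 members higher, 3 lower and 1 not called among 11 tested of 17. GALNT3, an initiating enzyme known to glycosylate the hormone FGF23, stood at 184, 176 and 154 CPM in the CBS KO libraries, against 55.4, 56.9 and 55 CPM in the WT libraries. It rose 3.07-fold (log2 fold change 1.62, SE 0.07, edgeR adjusted p = 3.33e-12). GALNT18 was at 9.26, 8.96 and 10.6 CPM in CBS KO and 3.68, 3.4 and 2.57 CPM in WT. It rose 2.98-fold (log2 fold change 1.58, SE 0.15, edgeR adjusted p = 5.39e-08). GALNT1, a widely expressed initiator, was at 126 ± 5.41 CPM in CBS KO and 60.7 ± 2.23 CPM in WT (SD, n = 3 in each group). It rose 2.07-fold. All 3 genes were higher in each CBS KO library than in any WT library.

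On the other side GALNT6, the closest relative of GALNT3, stood at 49.5, 45.4 and 46 CPM in the CBS KO libraries, against 90.2, 87 and 88.7 CPM in the WT libraries. It fell 1.89-fold (log2 fold change -0.92, SE 0.07, edgeR adjusted p = 1.59e-09). GALNT16 (3.98 ± 0.251 CPM in CBS KO and 5.7 ± 0.733 CPM in WT) and GALNT10 (32.5 ± 1.79 CPM in CBS KO and 43.5 ± 1 CPM in WT), an enzyme that prefers peptides already carrying GalNAc, fell 1.43-fold and 1.34-fold. GALNT2, the most abundant of the family over all libraries, was at 196 ± 4.23 CPM in CBS KO and 168 ± 3.77 CPM in WT (log2 fold change 0.22, SE 0.05, edgeR adjusted p = 0.00127), higher with TMM and lower with the library total and TPM. GALNT4, whose reading frame lies in a single exon, rose 1.69-fold, but 93.2% of its exonic bases are shared with the readthrough gene POC1B-GALNT4 on the same strand and its reads are uncertain. GALNT7 and GALNT12 had log2 fold changes of 0.45 and 0.47 with TMM and of -0.12 and -0.16 with TPM, and GALNT11 did not pass (log2 fold change 0.13, edgeR adjusted p = 0.0946). With the library total and TPM GALNT11 turned and was called lower (log2 fold changes -0.23 and -0.43).

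The summed level of the GALNT genes was 269, 246 and 218 TPM in CBS KO and 259, 252 and 249 TPM in WT, with groups that overlapped. In CPM it was 732, 702 and 676 CPM in CBS KO and 528, 515 and 507 CPM in WT, with groups that did not, so a difference in the sum depends on the unit. GALNT3 held 28.6, 28.3 and 25.9% in the CBS KO libraries, against 12.6, 13.3 and 13% in the WT libraries, and GALNT6 held 5.29 ± 0.218% in CBS KO and 14.3 ± 0.309% in WT. In CBS KO the order by mean TPM began with GALNT3 (67.7 TPM) and GALNT2 (59.4 TPM), and in WT with GALNT2 (75.6 TPM) followed by GALNT6 (36.3 TPM). GALNT3 lay above GALNT2 within each CBS KO library, though their ranges across these libraries overlapped. The share of GALNT1 was 17.5 ± 0.327% in CBS KO and 12.2 ± 0.313% in WT and that of GALNT2 24.4 ± 0.8% in CBS KO and 29.8 ± 0.126% in WT. For each of these 4 shares the groups did not overlap, and the two-sided exact permutation p was 0.1, the smallest that 3 libraries against 3 allow.

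The 4 GCNT genes, whose products add the branching GlcNAc of O-glycans and of polylactosamine, were all called, 1 higher and 3 lower. GCNT3, the mucin-type enzyme that makes core 2 and core 4 branches, stood at 56.1, 47.5 and 54.1 CPM in the CBS KO libraries, against 14.6, 15.4 and 15.3 CPM in the WT libraries. It rose 3.48-fold (log2 fold change 1.80, SE 0.08, edgeR adjusted p = 6.34e-12). GCNT1, the core 2 enzyme best known from leukocytes, was at 19, 15.8 and 15.7 CPM in the CBS KO libraries, against 45.1, 46.7 and 40.8 CPM in the WT libraries. It fell 2.62-fold (log2 fold change -1.39, SE 0.09, edgeR adjusted p = 4.89e-10). GCNT2, which makes the I-branches of polylactosamine, was at 38.3, 35 and 39.7 CPM in CBS KO and 62.5, 54.1 and 52.5 CPM in WT. It fell 1.5-fold (log2 fold change -0.58, SE 0.08). GCNT4 fell 2.4-fold at a low level (0.975 ± 0.00851 CPM in CBS KO and 2.36 ± 0.475 CPM in WT). The groups did not overlap for any of the 4.

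Of the family's TPM GCNT3 held 47, 46.3 and 47.2% in the CBS KO libraries, against 11.3, 12.7 and 13.1% in the WT libraries. GCNT1 held 13.4 ± 1.02% in CBS KO and 32.2 ± 1.87% in WT, and GCNT2 38.9 ± 0.869% in CBS KO and 53.6 ± 2.29% in WT (SD, n = 3 in each, two-sided exact permutation p = 0.1 for each of these shares). GCNT3 was the first of the family by mean TPM in CBS KO (14 TPM) and the third in WT, where it averaged 6.03 TPM. It lay above GCNT2 within each CBS KO library, though their ranges across these libraries overlapped. The summed family was 33.7, 27.5 and 28.5 TPM in CBS KO and 51.5, 48.4 and 46.8 TPM in WT. In CPM the sums overlapped between groups (114, 99.3 and 110.4 CPM in CBS KO and 125, 119 and 111 CPM in WT). B3GNT6, which makes the core 3 structure that GCNT3 turns into core 4, had 1 count in the CBS KO libraries together and 47 in the WT libraries (ratio 30.8, 95% exact binomial interval 5.27 to 1242, for counting error only), with too few counts for the test.

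Among the N-glycan branching enzymes 2 rose, 4 fell and 1 did not pass of 7 tested out of 9 MGAT genes. MGAT2, which adds the GlcNAc that starts the other arm of complex N-glycans, stood at 24.5, 25.4 and 25.7 CPM in the CBS KO libraries, against 63.4, 68 and 66.2 CPM in the WT libraries. It fell 2.61-fold (log2 fold change -1.39, SE 0.07, edgeR adjusted p = 2.45e-11). It is a single-exon gene, and 91.9% of its exonic bases lie opposite an antisense transcript, AL139099.1. MGAT5, which opens the branch that carries polylactosamine, was at 45.6, 39.9 and 36.3 CPM in the CBS KO libraries, against 75.5, 73.2 and 73.3 CPM in the WT libraries. It fell 1.82-fold (log2 fold change -0.87, SE 0.08, edgeR adjusted p = 3.24e-08). MGAT1, the first enzyme of the branching series, and MGAT3, which adds the bisecting GlcNAc, fell by less, with log2 fold changes of -0.16 and -0.21.

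MGAT4A and MGAT4B make the same branch. MGAT4A stood at 226, 199 and 202 CPM in the CBS KO libraries, against 103, 107 and 99.4 CPM in the WT libraries. It rose 2.03-fold (log2 fold change 1.02, SE 0.06, edgeR adjusted p = 2.54e-10). MGAT4B, the most abundant member of the family, was at 189.9 ± 12.5 CPM in CBS KO and 194 ± 3.55 CPM in WT and did not pass (log2 fold change -0.03, SE 0.06, edgeR adjusted p = 0.648), although it was called lower with the library total (log2 fold change -0.39) and with TPM (-0.60). Of the family's TPM MGAT4A held 14.6 ± 1.22% in CBS KO and 6.27 ± 0.267% in WT, and MGAT2 held 5.49 ± 0.166% in CBS KO and 13.3 ± 0.486% in WT, again with groups that did not overlap (two-sided exact permutation p = 0.1). MGAT4C rose at a low level (1.32 ± 0.529 CPM in CBS KO and 0.475 ± 0.177 CPM in WT). The share of MGAT4A differed by 8.3 points in TPM and 15.9 in CPM. The summed MGAT level was 248, 233 and 232 TPM in CBS KO and 381, 381 and 389 TPM in WT. In CPM the groups overlapped (671, 647 and 685 CPM in CBS KO and 664, 666 and 667 CPM in WT).

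**Figure D2:**
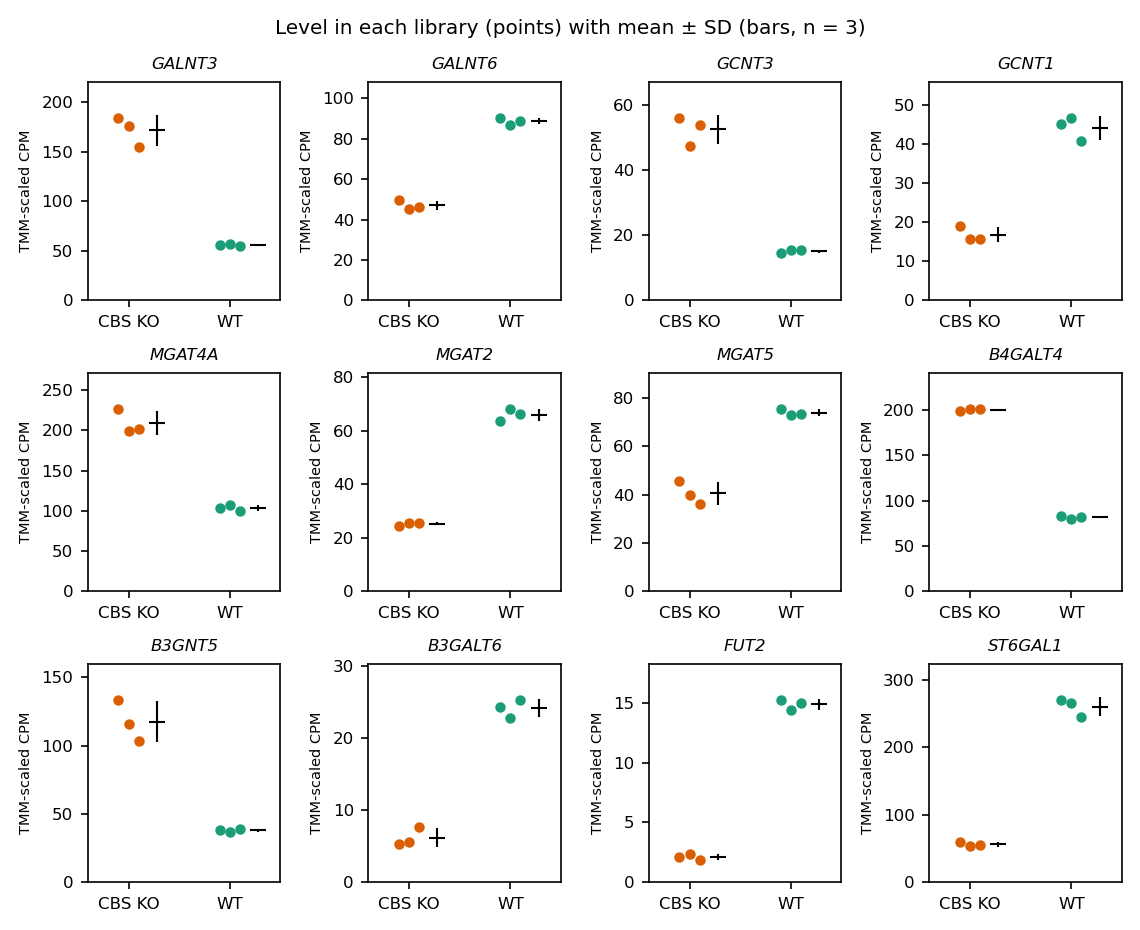
TMM-scaled CPM in each library (points, y axis from 0) of 12 glycosyltransferase genes, CBS KO left of WT, with the mean ± SD of 3 libraries beside them. In each of the 12 panels the CBS KO libraries lie apart from the WT libraries, with GALNT3, GCNT3, MGAT4A, B4GALT4 and B3GNT5 higher in CBS KO and the other 7 lower. The 12 genes were picked among called members, so their separation follows from that choice. Of all genes tested, 79.1% do not overlap between groups.

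Galactosyltransferases of the B4GALT family rose in 4 of 7 cases and fell in 2 with TMM, and all 7 were tested. B4GALT4, which acts on sulfated GlcNAc, stood at 199, 200.3 and 201 CPM in the CBS KO libraries, against 83, 80.2 and 81.8 CPM in the WT libraries. It rose 2.45-fold (log2 fold change 1.29, SE 0.05, edgeR adjusted p = 2.74e-12). B4GALT5, a lactosylceramide synthase and the most abundant member over all libraries, was at 432, 410.4 and 401 CPM in CBS KO and 237, 226 and 225 CPM in WT. It rose 1.81-fold (log2 fold change 0.85, SE 0.06, edgeR adjusted p = 7.24e-10). B4GALT1, the main lactosamine enzyme and the catalytic part of lactose synthase, and B4GALT3 rose 1.56-fold and 1.56-fold with TMM, with log2 fold changes of 0.06 and 0.04 with TPM. PPOX lies opposite 28.7% of the exonic bases of B4GALT3. B4GALT6, the other lactosylceramide synthase, fell 1.38-fold (19 ± 2.91 CPM in CBS KO and 26.2 ± 2.08 CPM in WT). The levels of B4GALT2 overlapped between groups (34.5 ± 1.7 CPM in CBS KO and 34.9 ± 1.36 CPM in WT), and it was called lower with the library total (log2 fold change -0.37) and TPM (-0.59). Of the family's TPM B4GALT4 took 28.6 ± 0.521% in CBS KO and 19 ± 0.284% in WT, a difference of 9.59 points in TPM and 5.96 in CPM. The family sum was 479.5, 443 and 409 TPM in CBS KO and 409, 406 and 403 TPM in WT. In CPM it was 1119, 1076 and 1064 CPM in CBS KO and 666, 656 and 647 CPM in WT.

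Both enzymes that add the galactoses of the linker between core protein and glycosaminoglycan fell. B3GALT6, which adds the second of them, stood at 5.33, 5.62 and 7.72 CPM in the CBS KO libraries, against 24.3, 22.8 and 25.3 CPM in the WT libraries. It fell 3.86-fold (log2 fold change -1.95, SE 0.12, edgeR adjusted p = 2.62e-10). B4GALT7, which adds the first, was at 11.7, 14.9 and 18.1 CPM in the CBS KO libraries, against 23.8, 25.8 and 25.9 CPM in the WT libraries. It fell 1.68-fold (log2 fold change -0.75, SE 0.12, edgeR adjusted p = 2.37e-05). XYLT1 and XYLT2, which start that linker, and B3GAT3, which completes it, are not members and were named after their values were seen. Their log2 fold changes were -0.58, -0.08 and 0.21 with TMM (edgeR adjusted p = 0.0266, 0.246 and 0.0419).

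In the B3GNT family, most of whose products add GlcNAc to galactose, 3 genes rose, 3 fell and 1 did not pass of 7 tested out of 9. B3GNT5, which starts lacto-series glycolipids, stood at 133, 116 and 103 CPM in the CBS KO libraries, against 38.6, 37 and 39.2 CPM in the WT libraries. It rose 3.07-fold (log2 fold change 1.62, SE 0.08, edgeR adjusted p = 3.51e-11). Part of it, 16.2% of its exonic bases, lies opposite MCF2L2. B3GNT7 was at 11.7, 10.8 and 11.5 CPM in CBS KO and 6.76, 5.49 and 4.53 CPM in WT. It rose 2.03-fold. B3GNT2, the main polylactosamine enzyme and the most abundant member, was at 104, 73 and 80.9 CPM in CBS KO and 53.3, 53 and 52.7 CPM in WT with TMM (log2 fold change 0.70) and did not pass with TPM (log2 fold change 0.10). B3GNT4 fell 3.36-fold (1.12 ± 0.12 CPM in CBS KO and 3.76 ± 0.845 CPM in WT), with 20.7% of its exonic bases opposite DIABLO. B3GNT8 did not pass (log2 fold change -0.35) and was called lower with the library total (-0.70) and TPM (-0.75). B3GNTL1 and B3GNT9 fell 2.06-fold and 1.75-fold. Of the family's TPM B3GNT5 held 39.9, 42.8 and 38.8% in the CBS KO libraries, against 23.3, 22.1 and 22.9% in the WT libraries. The share of B3GNT2 overlapped between groups at 46.8 ± 3.3% in CBS KO and 49.1 ± 1.12% in WT, a difference of -2.32 points in TPM and -7.47 in CPM. The family sum was 113, 85.5 and 79.1 TPM in CBS KO and 80.2, 80.4 and 83 TPM in WT. In CPM it was 259.6, 212 and 206 CPM in CBS KO and 117, 116 and 117 CPM in WT.

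Of the 6 B3GALT genes 4 were tested, with 1 higher, 2 lower and 1 not called. Besides B3GALT6 above, B3GALT9 fell 2.2-fold (1.06 ± 0.297 CPM in CBS KO and 2.34 ± 0.358 CPM in WT). B3GALT5, which makes the type 1 chains that carry Lewis a and its sialylated form, stood at 8.03, 7.03 and 4.8 CPM in the CBS KO libraries, against 1.1, 1.1 and 1.26 CPM in the WT libraries. It rose 5.71-fold (log2 fold change 2.51, SE 0.22, edgeR adjusted p = 2.12e-08); under 1 TPM in both groups, it was singled out after its value was seen. Its share of the family's TPM was 15.3 ± 5.08% in CBS KO and 0.857 ± 0.0277% in WT, a difference of 14.5 points in TPM and 39.8 in CPM. B3GALT1 was not called (0.997 ± 0.418 CPM in CBS KO and 0.603 ± 0.108 CPM in WT). The family sum was 4.28, 4.21 and 4.53 TPM in CBS KO and 19.4, 18.4 and 20.5 TPM in WT, most of it B3GALT6. In CPM it was 15.7, 14.9 and 14.5 CPM in CBS KO and 28, 26.8 and 30.0 CPM in WT.

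Fucosyltransferases were called in 6 of 9 cases, 4 higher and 2 lower, with 10 members in all. FUT2, the secretor enzyme that makes the H antigen of mucosal secretions, had the largest fall of the tested members with TMM. With log2(TPM + 1) the fall was larger for ST6GAL1 (-2.74, against -2.48 for FUT2). FUT2 fell more than ST6GAL1 with the library total (-3.16 against -2.56) and with log2(TPM + 0.1) (-3.26 against -2.80). It stood at 2.13, 2.37 and 1.87 CPM in the CBS KO libraries, against 15.2, 14.4 and 15 CPM in the WT libraries. It fell 6.99-fold (log2 fold change -2.80, SE 0.14, edgeR adjusted p = 1.39e-11). Its relative FUT1, which makes H antigen on red cells, was at 5.98, 5.8 and 5.77 CPM in CBS KO and 4.78, 3.57 and 5.13 CPM in WT and has no settled direction (log2 fold change 0.38 with TMM and -0.13 with TPM). FUT8, which adds the core fucose of N-glycans, was at 23.9, 24.1 and 23.3 CPM in CBS KO and 43.5, 40.5 and 37.7 CPM in WT. It fell 1.71-fold (log2 fold change -0.77, SE 0.08, edgeR adjusted p = 1.19e-07). FUT11 was at 22.5, 21.4 and 19.8 CPM in CBS KO and 9.78, 10.1 and 9.94 CPM in WT. It rose 2.13-fold (log2 fold change 1.09, SE 0.09, edgeR adjusted p = 1.37e-08).

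The Lewis-type enzymes, and FUT10 beside them, were at low levels or did not pass. FUT3, the Lewis enzyme, was at 0.984, 2.37 and 1.46 CPM in CBS KO and 0.385, 0.494 and 0.164 CPM in WT and was called higher (log2 fold change 2.17, SE 0.42, edgeR adjusted p = 0.00016), but FUT3, FUT5 and FUT6 are near-identical neighbours, so the split of their reads is uncertain. FUT6 was at 1.53 ± 0.173 CPM in CBS KO and 2.05 ± 0.198 CPM in WT and did not pass, nor did FUT4, which makes Lewis x (34.7 ± 1.84 CPM in CBS KO and 37.7 ± 1.65 CPM in WT), or FUT10 (16.1 ± 1.86 CPM in CBS KO and 17.5 ± 0.639 CPM in WT). All 3 were called lower with the other scalings, with log2 fold changes of -0.77, -0.47 and -0.48 with the library total and of -0.43, -0.64 and -0.69 with TPM for FUT6, FUT4 and FUT10. FUT7, which makes sialyl Lewis x in leukocytes, was called higher at 1.15, 2.11 and 2.03 CPM in CBS KO and 0.824, 0.878 and 0.601 CPM in WT. It rose 2.28-fold, and 27.6% of its exonic bases are shared with AL807752.6 on the same strand and 39.2% lie opposite C9orf139. Of the family's TPM FUT2 held 2.17, 2.35 and 2.03% in the CBS KO libraries, against 14.3, 14 and 14.8% in the WT libraries. FUT8 held 18.6 ± 0.585% in CBS KO and 29.3 ± 1.33% in WT, and FUT11 34.5 ± 1.71% in CBS KO and 15.4 ± 0.524% in WT. The share of FUT11 differed by 19.1 points in TPM and 11.7 in CPM. The sum was 46, 44.6 and 38 TPM in CBS KO and 70.2, 67.6 and 66.7 TPM in WT. The same sum in CPM was 111, 112 and 104 CPM in CBS KO and 133, 127 and 125 CPM in WT.

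Of the ST3GAL sialyltransferases 1 rose, 3 fell and 2 did not pass, and all 6 were tested. ST3GAL1 and ST3GAL2, which cap core 1 O-glycans, fell 1.9-fold and 2.11-fold. ST3GAL2 stood at 17.9, 18.8 and 17.4 CPM in the CBS KO libraries, against 35.5, 38.9 and 39.6 CPM in the WT libraries (log2 fold change -1.08, SE 0.08, edgeR adjusted p = 2.77e-09), and ST3GAL1 at 16.9 ± 0.835 CPM in CBS KO and 32.1 ± 2.86 CPM in WT. ST3GAL6, which caps lactosamine and was the most abundant over all libraries, was at 19.3, 21.5 and 18 CPM in CBS KO and 40.2, 36.4 and 38.5 CPM in WT. It fell 1.96-fold (log2 fold change -0.97, SE 0.08, edgeR adjusted p = 1.7e-08). ST3GAL4, which acts on the same acceptors, was at 10.2, 12.5 and 12.4 CPM in CBS KO and 6.54, 6.86 and 6.77 CPM in WT. It rose 1.74-fold (log2 fold change 0.80, SE 0.12, edgeR adjusted p = 8.44e-06), a call that was lost with TPM (log2 fold change 0.18). ST3GAL3 (4.75 ± 0.618 CPM in CBS KO and 3.8 ± 0.375 CPM in WT) and ST3GAL5, the GM3 synthase (2.16 ± 0.348 CPM in CBS KO and 1.92 ± 0.438 CPM in WT), did not pass. Of the family's TPM ST3GAL4 held 34.7 ± 1.97% in CBS KO and 15.4 ± 0.596% in WT and ST3GAL6 28.2 ± 2.06% in CBS KO and 41.9 ± 1.94% in WT. The share of ST3GAL4 differed by 19.3 points in TPM and 10.4 in CPM, and that of ST3GAL6 by -13.7 points in TPM and -4.94 in CPM. The sum was 27.6, 29.1 and 25.8 TPM in CBS KO and 54.6, 53.8 and 52.9 TPM in WT. The same sum in CPM was 70.2, 76.3 and 72.9 CPM in CBS KO and 122, 122 and 119 CPM in WT.

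ST6GAL1, the enzyme that caps the lactosamine of N-glycans with sialic acid and the most abundant of these sialyltransferases in WT, fell 4.62-fold. It stood at 60.3, 53.6 and 55 CPM in the CBS KO libraries, against 270.0, 266 and 245 CPM in the WT libraries (log2 fold change -2.21, SE 0.07, edgeR adjusted p = 3.67e-14), with every CBS KO library below every WT library. In TPM it averaged 17.8 ± 2.04 TPM in CBS KO and 124 ± 6.34 TPM in WT. ST6GAL2 had 1 count in all libraries together. The ST6GALNAC genes, which sialylate the GalNAc of O-glycans and gangliosides, had 2 members called higher, 0 lower and 3 that did not pass of 5 tested. ST6GALNAC6, a ganglioside and disialyl Lewis a enzyme, was at 73.4, 74.1 and 80.9 CPM in CBS KO and 65.4, 58.1 and 65.8 CPM in WT (log2 fold change 0.27) and ST6GALNAC4 at 20.8, 22.2 and 23.6 CPM in CBS KO and 20.2, 19 and 18.6 CPM in WT (log2 fold change 0.21), and both turned negative with the library total and TPM. ST6GALNAC6 shares 47.0% of its exonic bases with AL157935.2 on the same strand. ST6GALNAC3 and ST6GALNAC5 did not pass (log2 fold changes -0.15 and -0.48), and ST6GALNAC3 was called lower with the library total (-0.50) and TPM (-0.87). The call of ST6GALNAC4 was also lost without WT replicate 2 or 3 and without CBS KO replicate 2 or 3, with edgeR adjusted p between 0.0797 and 0.139.

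Of the TPM summed over ST6GAL and ST6GALNAC genes ST6GAL1 made up 20.9, 19.2 and 18.7% in the CBS KO libraries, against 56.4, 58.1 and 53.6% in the WT libraries, while ST6GALNAC6 made up 49.4 ± 1.47% in CBS KO and 25.1 ± 1.61% in WT (two-sided exact permutation p = 0.1 for each). The family sum was 96.1, 88.1 and 87.2 TPM in CBS KO and 228, 217 and 218 TPM in WT. The same sum in CPM was 175, 171 and 180.1 CPM in CBS KO and 378, 366 and 354 CPM in WT. ST6GALNAC1, which makes the sialyl-Tn antigen, was near 1 CPM in both groups (0.777 ± 0.188 CPM in CBS KO and 1.04 ± 0.248 CPM in WT) and did not pass, though it was called lower with the library total (log2 fold change -0.76).

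The 15 members without enough counts for the test were GALNT5, GALNT8, GALNT9, GALNT13, GALNT15, GALNT17, B3GALT2, B3GALT4, B3GNT3, B3GNT6, FUT5, ST6GAL2, ST6GALNAC2, MGAT4D and MGAT5B. B3GALT4, which makes the ganglioside GM1, had 0 counts in CBS KO and 1 in WT. GALNT9 had 25 counts in CBS KO and 3 in WT (ratio 12.7, 95% exact binomial interval 3.88 to 65.8). Where a library had no count, the limit (3 counts) was 0.244 to 0.264 CPM in CBS KO and 0.164 to 0.165 CPM in WT, which covers counting error only.

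In GENCODE 29 the longest coding sequence lies in 1 exon for 17 of the 60 tested members with an annotation, of which 6 rose and 8 fell (median log2 fold change -0.16), beside 703 of 12960 annotated genes in all, of which 252 rose and 293 fell (median -0.07). For the 43 members with several coding exons, 19 rose and 14 fell (median 0.13). Of 12257 such genes in all, 4723 rose and 4748 fell (median -0.01). Single-exon transcripts were B3GALT6, MGAT2 and GCNT4, which fell, GALNT4, which rose, and FUT4 and B3GALT1, which did not pass. Their median was -0.69, beside -0.16 for 268 such genes in all, of which 93 rose and 120 fell.

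The pathways around these enzymes were described by fixed lists. Of 27 genes of nucleotide sugar supply 7 were higher, 13 lower and 7 not called (median log2 fold change -0.24). GFPT1, which sets the flow into the hexosamine pathway, rose 2.5-fold (535 ± 54.4 CPM in CBS KO and 214 ± 11 CPM in WT) and GNE, which starts sialic acid synthesis, fell 2.92-fold (8.11 ± 1.39 CPM in CBS KO and 23.6 ± 1.88 CPM in WT). Of 15 tested Golgi nucleotide sugar transporters 4 were higher, 7 lower and 4 not called (median log2 fold change -0.08). SLC35A3, a carrier of UDP-GlcNAc, rose 2.66-fold and SLC35C1, the GDP-fucose carrier, fell 2.73-fold (4.99 ± 1.2 CPM in CBS KO and 13.6 ± 0.661 CPM in WT). Among 21 tested of the other glycan-elongating enzymes 8 were higher, 6 lower and 7 not called (median log2 fold change 0.03). C1GALT1, the core 1 galactosyltransferase that follows the GALNT step, rose 1.6-fold with TMM (72 ± 12 CPM in CBS KO and 45 ± 1.65 CPM in WT), with a log2 fold change of 0.08 with TPM, and C1GALT1C1, its chaperone COSMC, fell 2.02-fold (7.54 ± 0.545 CPM in CBS KO and 15.2 ± 0.324 CPM in WT).

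Glycan sulfotransferases went lower in most cases: of 10 tested 1 was higher, 7 lower and 2 not called (median log2 fold change -1.36), and CHST14, which acts on dermatan sulfate, fell 3.51-fold. Of 31 genes of the N-glycan precursor and its transfer 14 were higher, 11 lower and 6 not called (median log2 fold change 0.15). DOLK, the dolichol kinase, fell 6.44-fold (5.28 ± 1.07 CPM in CBS KO and 34.1 ± 1.33 CPM in WT) and ALG1 fell 4.14-fold. DPM3 and OST4 rose, with log2 fold changes of 1.14 and 0.61 with TMM and of 0.59 and 0.01 with log2(TPM + 1). N-glycan trimming genes counted 15, of which 6 were higher, 2 lower and 7 not called (median log2 fold change 0.12); MAN2A1, the Golgi mannosidase that follows MGAT1, rose 1.89-fold (226 ± 19.4 CPM in CBS KO and 119.8 ± 2.87 CPM in WT) and MAN1C1 fell 6.66-fold. In the list of Golgi structure and retention, 13 were higher, 10 lower and 5 not called (median log2 fold change 0.02) among 28 genes. COG2 and COG8, subunits of the complex that keeps glycosyltransferases in the Golgi, fell 4.47-fold and 2.88-fold, and the golgin GOLGA4 rose 2.57-fold. The 7 tested of 13 mucin genes in the table all rose (median log2 fold change 1.64), with MUC13, chosen after its value was seen, at 188 ± 7.17 CPM in CBS KO and 69.5 ± 6.96 CPM in WT, MUC3A at 119 ± 15.6 CPM in CBS KO and 30.4 ± 2.66 CPM in WT and MUC17 at 108 ± 2.91 CPM in CBS KO and 4.4 ± 0.653 CPM in WT. The goblet mucin MUC2 stayed under 1 CPM. These counts are with TMM and stand beside 38.4% higher and 38.9% lower over all genes. With log2(TPM + 1), 1 of 27 genes of sugar supply was higher and 24 lower, 1 of 15 transporters higher and 13 lower, 1 of 30 precursor genes higher and 24 lower, 1 of 15 trimming genes higher and 12 lower, 4 of 28 Golgi genes higher and 18 lower, and 1 of 19 other elongating enzymes higher and 14 lower. The mucin genes stayed at 4 higher and 0 lower of 5 tested, and the sulfotransferases at 0 higher and 7 lower of 9. These log2(TPM + 1) counts stand beside 1969 higher and 8451 lower of 12786 genes tested with that scaling.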

How the data were processed

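Poly(A) RNA of 6 Caco-2 libraries was sequenced after dUTP marking of the second strand, per the labels' protocols. Tools listed in the submitters' processing notes, with no roles, are StringTie 2.1.6, HISAT2 2.2.1, cutadapt 1.9, edgeR and DESeq2, with build GRCh38. The use of strand and of reads with several matches in counting is not given in the sources used here. The authors deposited expected counts, FPKM and TPM for each library in 1 table. The deposited expected counts, of which 7.12 to 7.43% are not whole, were rounded. The deposited TPM values served for levels between genes and for shares within a family. The authors' deposited FPKM values and group means were not used.

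Genes were filtered with filterByExpr, scaled by TMM and tested with edgeR 4.0.16 (quasi-likelihood, robust; limma 3.58.1, R 4.3.3), CBS KO against WT, all 6 libraries, no covariate, Benjamini-Hochberg adjustment over 13028 genes. Standard errors come from the estimate and its F statistic. The script was tested on simulated counts. Named members are, by prefix, the most abundant by TPM and up to 2 called members with the largest change in each direction and at least 1 TPM in the higher group (33 genes); others are given by counts or were chosen after their values were seen. From each other list up to 2 called genes in each direction were eligible. Members and lists were chosen with earlier results of these data known. Alternatives were DESeq2 1.42.0, its size factors, the library total, other filters, limma on log2(TPM + 1) and log2(TPM + 0.1), a replicate block and leaving out each library. None of the 10 mitochondrial genes listed as a sign of RNA quality was found by symbol among the deposited genes, so they give no value. Promoter windows come from RefSeq and exons from GENCODE 29.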

Additional observations from a re-analysis of the deposited data

How the results depend on the processing

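With the replicate number as a block, 25 glycosyltransferases were higher and 23 lower, as without it, and no named member changed its call. The correlations of the deviations of same-numbered libraries were 0.067, 0.007 and 0.039. CBS KO replicates 1 and 3 correlated best with the WT replicate of the same number, and CBS KO replicate 2 with WT replicate 3 (0.018). Such values do not tell whether same-numbered libraries shared a culture or a batch. Over all genes the block gave 4986 higher and 5058 lower. Of all genes, 4998 were higher and 5062 lower with TMM, against 2966 higher with the library total, 1969 higher and 8451 lower with log2(TPM + 1), and 1956 higher and 8432 lower with log2(TPM + 0.1). Higher glycosyltransferases numbered 25 with TMM, 12 with log2(TPM + 1) and 11 with log2(TPM + 0.1). The direction turned for GALNT2 (log2 fold change -0.13 with the library total and -0.35 with either TPM offset), for ST6GALNAC4 (-0.15, -0.37 and -0.39) and for ST6GALNAC6 (-0.08, -0.30 and -0.31). The medians of all genes under these scalings were -0.36, -0.52 and -0.59. MGAT4B, not called, ranged from -0.09 to 0.00 when 1 library was left out, and was called lower with the library total and TPM. Calls were lost with TPM for B3GNT2 and ST3GAL4, and for FUT7 with log2(TPM + 0.1) (adjusted p = 0.0569). ST6GALNAC4 was also not called with DESeq2 (adjusted p = 0.113) or without a filter (adjusted p = 0.0959). Leaving out 1 library gave 24 to 26 glycosyltransferases higher and 22 to 25 lower. Shares computed from CPM in place of TPM moved by more than the spread for 23 of 33 named members. The difference between groups turned for B3GALT9 (2.22 points with TPM and -1.13 with CPM) and MGAT4B (2.87 and -0.68), and the cause was not tested. The filter on low counts left out 15 members; without it all 76 were tested, with 24 higher and 24 lower.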
